A study of Homo sapiens with 6 samples.

Results

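Long noncoding RNAs are transcripts that are not known to be translated, and antisense RNAs are those made from the strand opposite a neighbouring gene. The set described here holds every array probe annotated to an intergenic noncoding gene (LINC), a small nucleolar RNA (snoRNA) host gene (SNHG, GAS5), a short RNA of the SNAR family, an antisense gene (-AS1 to -AS3), an intronic or divergent transcript (-IT1, -DT), a microRNA host gene (MIR...HG), or MALAT1, H19, MEG3, HOTAIR or TUG1. Members were chosen by a rule on gene symbols, with THBS2-AS1 left out, and no probe was named for NEAT1. The choice was made with earlier results of these data known. They came to 777 probes of 733 genes, out of 48803 probes on the array and 18852 named genes. There were 460 LINC probes, 213 antisense probes, 63 intronic or divergent probes, 20 probes of microRNA hosts, 11 of snoRNA hosts, 4 of SNAR RNAs and 6 of MALAT1, H19, MEG3, HOTAIR and TUG1.

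The cells were ES-2, an established human ovarian clear cell carcinoma line. Cells of the first group were transfected with a hairpin inhibitor of miR-182 (hsa-mir-182) at 50 nM, and cells of the second with a negative control hairpin inhibitor modelled on a C. elegans microRNA. RNA was taken 48 h after transfection and read on Illumina bead arrays, 1 for each of 3 biological replicates per group. The design text speaks of mimics where the sample labels speak of an inhibitor, and the labels are followed. The comparison asks which RNAs differ when miR-182 is inhibited. No probe was named for the miR-182 gene, so its inhibition could not be checked on these arrays.

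MicroRNAs pair with target RNAs mostly through the seed, bases 2 to 8, and guide their silencing. Many snoRNA host genes carry snoRNAs in their introns, while the spliced exons are often removed by nonsense-mediated decay. Antisense and divergent RNAs often start near a promoter of a protein-coding neighbour, and are frequently short-lived nuclear RNAs kept low by the RNA exosome. SNAR RNAs are short RNA polymerase III products.

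The mature miR-182 sequence is shown because it is the target of the inhibitor, with its seed in capitals. It lies at chr7:129770447-129770470 on the minus strand in the RefSeq table of GRCh38.p14, the source of all sequences given here.
hsa-miR-182-5p: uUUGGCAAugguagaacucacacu

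Of the 17 microRNA host genes in the set, 16 had mature microRNAs in the same table, 45 entries in all, and 0 of them carried the miR-182 seed. The arms below belong to hosts that were detected in ES-2 cells and are shown to compare their seeds, in capitals, with that of miR-182.
hsa-miR-181a-5p: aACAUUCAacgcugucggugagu
hsa-miR-181b-5p: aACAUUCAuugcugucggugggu
hsa-miR-29b-3p: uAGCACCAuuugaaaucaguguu
hsa-miR-29c-3p: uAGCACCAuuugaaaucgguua
hsa-miR-99a-5p: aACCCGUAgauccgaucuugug
hsa-let-7c-5p: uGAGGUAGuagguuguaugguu
hsa-miR-125b-5p: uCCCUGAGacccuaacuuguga
hsa-miR-503-5p: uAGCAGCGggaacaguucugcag
The first pair, from MIR181A2HG, share a seed, and so do both members of the miR-29 pair from MIR29B2CHG. MIR99AHG holds miR-99a, let-7c and miR-125b with separate seeds, and MIR503HG holds miR-503.

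Most of these genes gave no signal above background in ES-2 cells. A probe counted as detected on an array where its detection p, from the deposited detection values, was under 0.05. Of the 777 member probes, 521 (67.1%) were detected on none of the 6 arrays, 108 (13.9%) on all 6, and 164 (21.1%, of 156 genes) on at least 3. Over the other named probes, 59.4% were detected on at least 3 arrays. The inhibitor arrays detected 143, 177 and 162 member probes and the control arrays 187, 155 and 153, so the groups overlapped. Detection also followed the kind of record a probe was designed on. It reached at least 3 arrays for 38 of 80 probes on curated noncoding RefSeq records (47.5%), 14 of 47 on RefSeq messenger records (29.8%) and 112 of 650 on other GenBank records, cDNA or EST (17.2%).

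**Figure D1:**
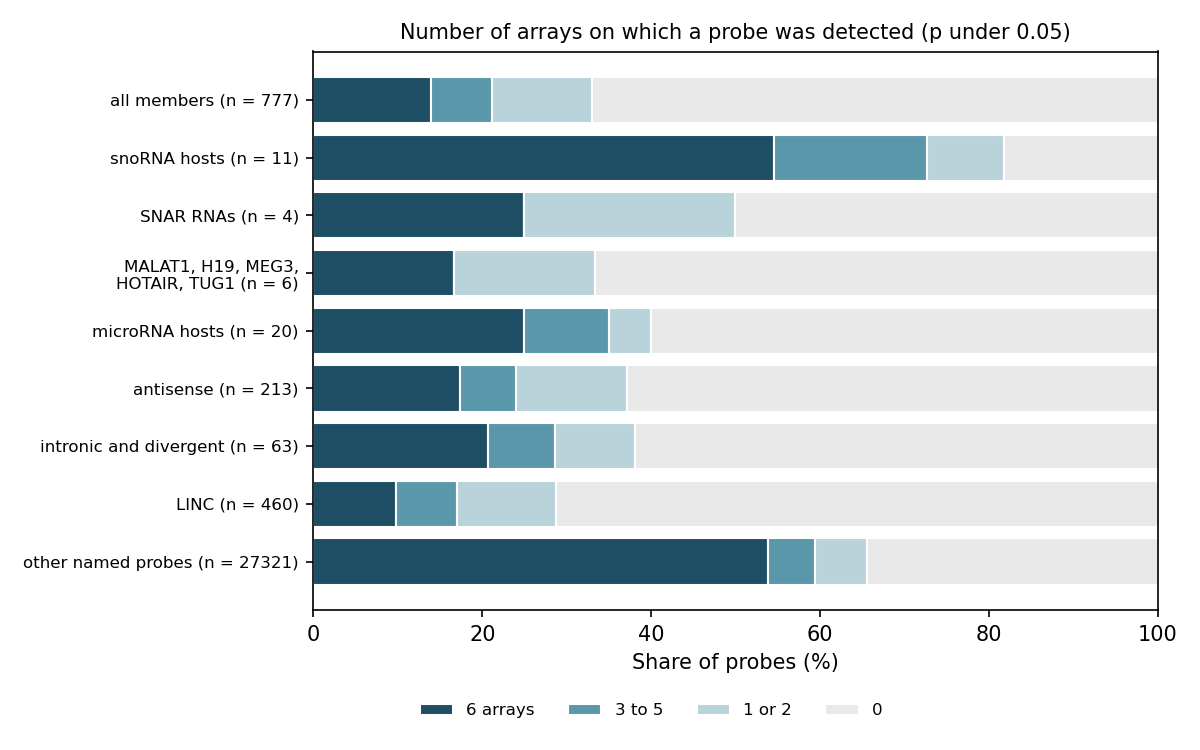
Share of probes (x axis, percent) detected on 6, 3 to 5, 1 or 2, or 0 arrays, by class (y axis, number of probes in brackets), with the other named probes in the lowest row. The snoRNA hosts were detected on at least 3 arrays in 72.7% of probes, against 17% for LINC.

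By class, 8 of 11 snoRNA host probes (72.7%) were detected on at least 3 arrays. The shares were 7 of 20 for microRNA hosts (35%), 18 of 63 for intronic and divergent transcripts (28.6%), 51 of 213 for antisense (23.9%) and 78 of 460 for LINC (17%). MALAT1, which is abundant in many tissues, H19, and MEG3, with 2 probes, were detected on none of the arrays, at log2 signals of 4.14 to 4.56. The lowest signals that counted as detected lay between 4.50 and 4.62. HOTAIR and GAS5 were each detected on 1 control array and no inhibitor array. A probe without signal shows only that its own target stretch was not measured above background, and other probes or transcript ends of these genes were not measured here.

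The 164 probes detected on at least 3 arrays entered the test, a limma fit across all 21349 probes so detected, with Benjamini-Hochberg adjustment over all of them. Differences below are log2 signal, inhibitor minus control, with the standard error. No member passed an adjusted p of 0.05, and neither did any other probe (0% called, 0 of 21349, with 660 higher and 816 lower at an unadjusted p under 0.05). The lowest adjusted p was 0.640 in both. At an unadjusted p under 0.05, 8 members were higher (4.88%, against 3.09% of all probes tested) and 6 were lower (3.66%, against 3.82%). CTCF-DT and LINC01917 were among the higher and LINC00867 among the lower. Each of them entered the test only through the group in which it was detected. Among members detected on all 6 arrays, 1 was higher (0.926%, against 2.88% of all probes so detected) and 3 were lower (2.78%, against 3.57%). The 3 inhibitor arrays lay above the 3 control arrays for 13 members (7.93%, against 6.28%) and below them for 10 (6.10%, against 6.17%). Both shares were near those of all probes. Of the members, 84 were higher and 80 lower, with a median of 0.0053, against 0.00062 over all probes tested.

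Many tested members sat close to the background. Their mean signal was under 5 on the log2 scale for 88 of 164, against 4858 of 21349 probes. The pooled standard deviation between replicates had a median of 0.113 log2 over members and 0.105 over all probes. The 95% interval reached 0.198 log2 to either side of the difference in the median member, which is 1.15-fold. The arrays are labelled biological replicates, and the labels do not say whether the cultures were run on separate days.

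**Figure D2:**
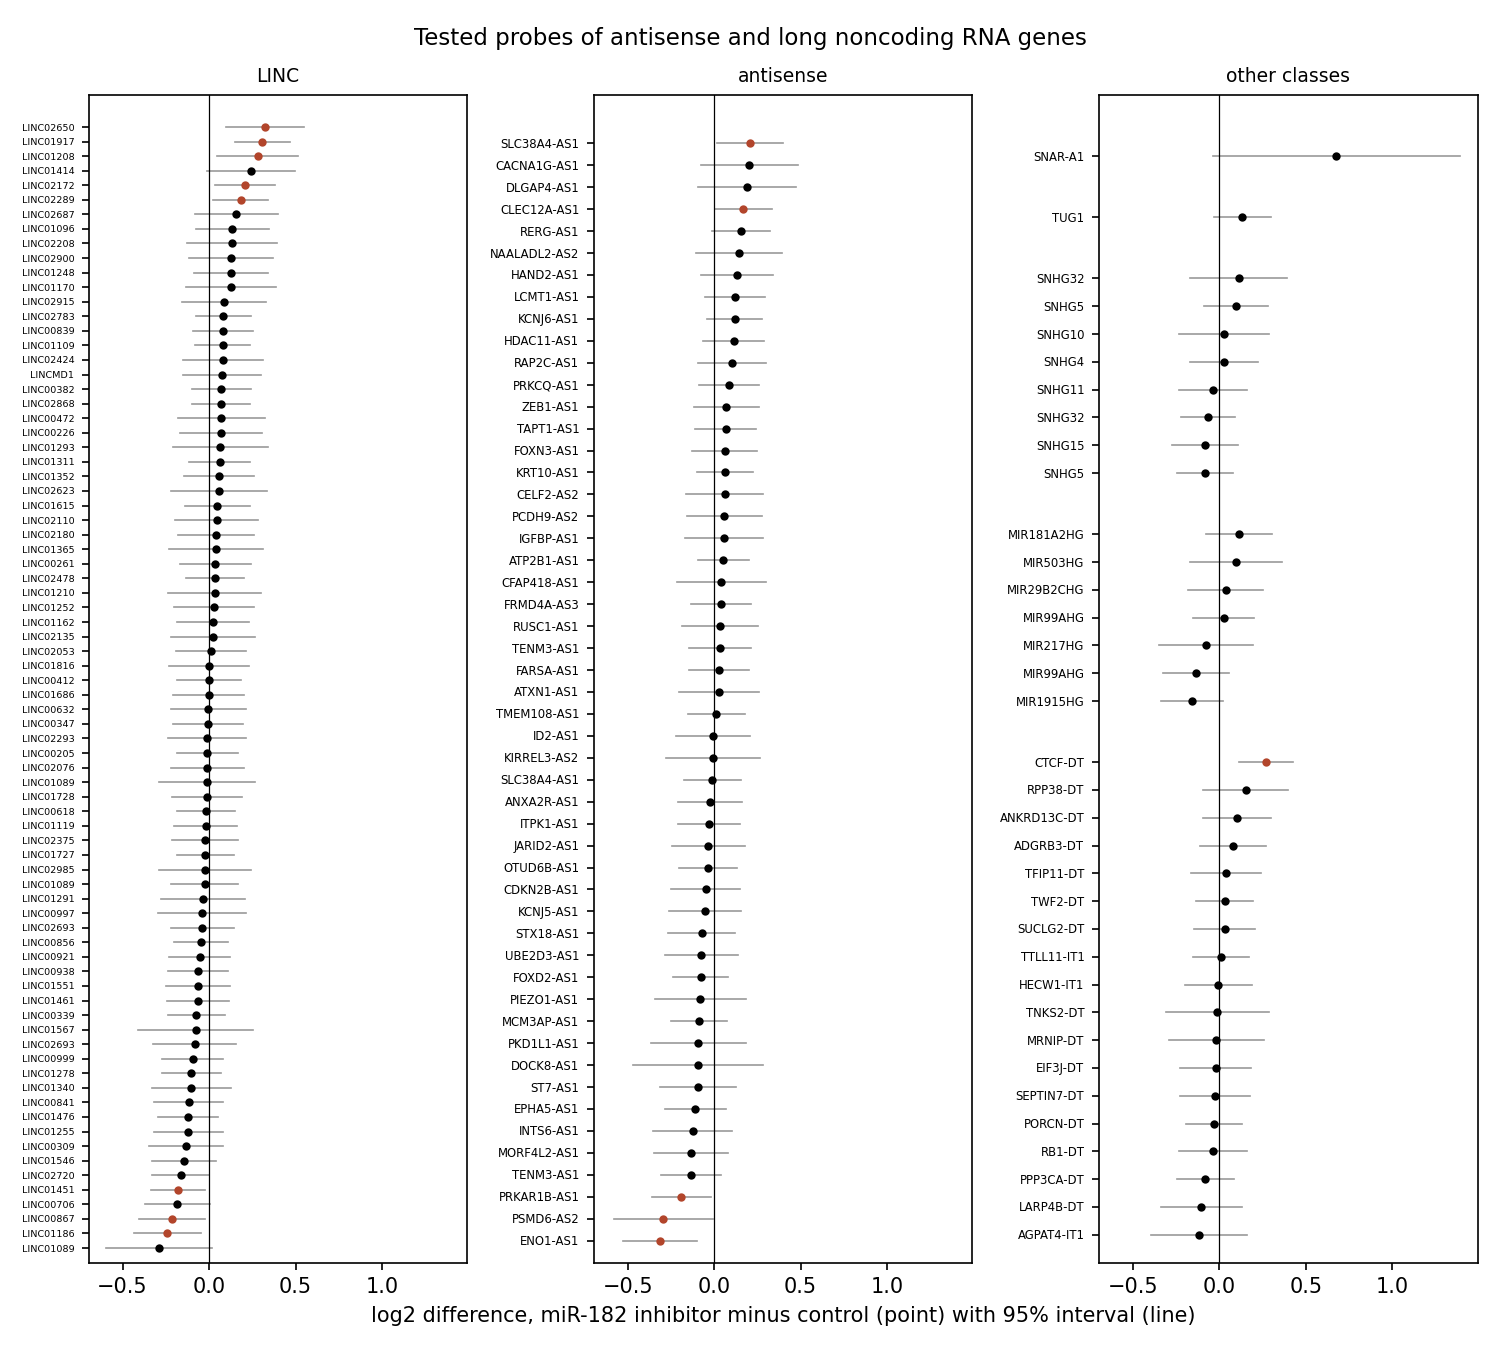
Log2 difference (x axis, inhibitor minus control) with its 95% interval for each of the 164 tested probes, named on the y axis, in panels for LINC, antisense and the other classes. Red points have an unadjusted p under 0.05, and SNAR-A1 has both the largest difference (0.68) and the widest interval.

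The snoRNA host genes were the class detected in the highest share. SNHG32, which carries the box C/D snoRNAs SNORD48 and SNORD52, had log2 signals of 12.30, 12.29 and 12.25 on inhibitor arrays and 12.34, 12.29 and 12.40 on control arrays with its brighter probe. The groups overlapped, with a difference of -0.06 ± 0.07 (adjusted p = 0.893). Its dim probe read 4.50, 5.00 and 4.86 with the inhibitor and 4.55, 4.80 and 4.67 with the control, a difference of 0.11 ± 0.13. SNHG5, host of SNORD50A and SNORD50B, also had a pair of probes with opposite signs. One read 9.97, 9.77 and 9.99 on inhibitor arrays and 9.80, 9.88 and 9.76 on control arrays (0.10 ± 0.08). The other read 10.28, 10.33 and 10.27 on inhibitor arrays and 10.30, 10.40 and 10.43 on control arrays (-0.08 ± 0.07). The groups overlapped on every one of these probes.

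The remaining tested hosts had overlapping groups too. SNHG4, host of SNORA74A, averaged 8.65 ± 0.14 with the inhibitor and 8.62 ± 0.08 with the control (SD, n = 3 each), a difference of 0.03 ± 0.09 that was -0.01 with median scaling in place of quantile normalization. SNHG15, host of SNORA9, averaged 8.58 ± 0.13 with the inhibitor and 8.66 ± 0.08 with the control. SNHG11, host of SNORA60, averaged 7.28 ± 0.11 with the inhibitor and 7.32 ± 0.11 with the control. For none of these was the difference larger than the spread between replicates. SNHG10, host of the small Cajal body RNA SCARNA13, averaged 4.72 ± 0.06 with the inhibitor and 4.69 ± 0.25 with the control. SNHG3 and SNHG8 were detected on none of the 6 arrays. Of the 24 snoRNAs placed in these 9 host genes by RefSeq, only SNORD48 had a named probe. It read 6.09, 5.69 and 6.14 with the inhibitor and 6.06, 6.17 and 6.21 with the control, a difference of -0.17 ± 0.12 (adjusted p = 0.807), and the groups overlapped.

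Many snoRNA hosts begin with a 5' terminal oligopyrimidine run, which ties their translation and decay to growth signals. The search was for C followed by 5 C or T, reading the gene's own strand and beginning within 2 bases of the start. It was met by 2 of the 8 snoRNA hosts that had a promoter window, SNHG4 and SNHG32, and by 6.89% of all 27305 windows. Only the first listed window of each gene was searched, so any other start of a host was not read. The 60 bases around the start, 30 before and 30 after, are shown for these hosts and for SNHG5, with the run in capitals where the rule found one. SNHG4 is at chr5:139274071-139274130 (plus strand), SNHG32 at chr6:31834886-31834945 (plus strand) and SNHG5 at chr6:85678704-85678763 (minus strand).
SNHG4: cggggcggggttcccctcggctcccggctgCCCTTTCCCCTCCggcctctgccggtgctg
SNHG32: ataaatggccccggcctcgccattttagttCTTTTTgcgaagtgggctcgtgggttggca
SNHG5: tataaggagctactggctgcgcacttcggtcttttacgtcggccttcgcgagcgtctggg
SNHG4 has a run of 13 pyrimidines and SNHG32 one of 6. SNHG5 starts with a shorter run that does not meet the rule. SNHG4 and the brighter probe of SNHG32 had differences of 0.03 ± 0.09 and -0.06 ± 0.07 between the groups, and neither passed the test.

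SNAR-A1 had the largest difference of any tested probe, and it rested on 1 control array. Its log2 signals were 11.37, 11.39 and 11.29 on inhibitor arrays and 11.20, 11.11 and 9.71 on control arrays. All 3 inhibitor arrays were above all 3 control arrays, and the third control array was far below the other 5. The difference was 0.68 ± 0.32 (95% interval -0.04 to 1.39, adjusted p = 0.739), and it was 0.20 without control replicate 3. The deposited signal was 2364.2, 3023.9 and 2399.1 with the inhibitor and 2472.3, 2304.9 and 806.8 with the control. On that scale, before normalization, control replicate 1 was above inhibitor replicates 1 and 3, so the groups overlapped. The value of 806.8 was a mean of 44 beads with a standard error over beads of 2.66%, which covers bead error within that array and no difference between cultures. Among all 21349 tested probes, this was the deepest drop of control replicate 3 under the median of the other 5 arrays, -1.58 on the log2 scale, with the next at -1.09.

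SNAR-A1 belongs to a family of near-identical copies, and which copies its probe reads was not tested. The probes of SNAR-E and SNAR-G1 were detected on none of the arrays and that of SNAR-C3 on 1 inhibitor array. For comparison, other RNA polymerase III products were looked up after the SNAR-A1 values were seen. BCYRN1, a short neuronal RNA also made in tumours, read 10.66, 10.32 and 10.51 with the inhibitor and 10.41, 10.29 and 9.96 with the control (0.27 ± 0.13, adjusted p = 0.730). It too was lowest on control replicate 3, and its groups overlapped. RN7SL1, the RNA of the signal recognition particle, differed by 0.05 ± 0.07, RPPH1, the RNA of ribonuclease P, by -0.07 ± 0.07, and RN7SK, which holds back transcription elongation, by 0.16 ± 0.09 and 0.06 ± 0.09 on 2 probes. The cause of the low value on control replicate 3 was not tested.

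TUG1, a widely made RNA of the nucleus and cytoplasm, was detected on all 6 arrays. It read 11.55, 11.40 and 11.44 on inhibitor arrays and 11.39, 11.28 and 11.32 on control arrays. The inhibitor arrays were above the control arrays by a narrow margin, with a difference of 0.13 ± 0.07 (adjusted p = 0.769).

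The microRNA host genes showed no difference that passed the test. MIR503HG, from which miR-503 is cut, read 10.47, 10.22 and 9.95 with the inhibitor and 10.13, 10.14 and 10.07 with the control. Its inhibitor arrays spread wider than the control arrays and covered them, and the difference was 0.10 ± 0.12. MIR99AHG had 3 probes, of which 1 was never detected. One read 7.99, 7.80 and 7.99 with the inhibitor and 7.96, 8.11 and 8.12 with the control (-0.14 ± 0.08), and another averaged 6.78 ± 0.09 with the inhibitor and 6.75 ± 0.06 with the control (0.03 ± 0.08). The groups overlapped on both. MIR181A2HG averaged 5.78 ± 0.04 with the inhibitor and 5.66 ± 0.14 with the control (0.11 ± 0.09), and MIR29B2CHG averaged 4.83 ± 0.11 with the inhibitor and 4.79 ± 0.15 with the control (0.04 ± 0.10). MIR217HG, host of miR-217, averaged 4.59 ± 0.09 with the inhibitor and 4.67 ± 0.26 with the control (-0.08 ± 0.12). The remaining 11 host genes were below the detection rule, 10 of them on every array. MIR1915HG was detected on 0 inhibitor arrays and 3 control arrays. Its level is only a bound on the inhibitor side, with a group mean at least 1.01-fold lower with the inhibitor (adjusted p = 0.747). The array measures the host RNA and not the mature microRNAs.

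**Figure D3:**
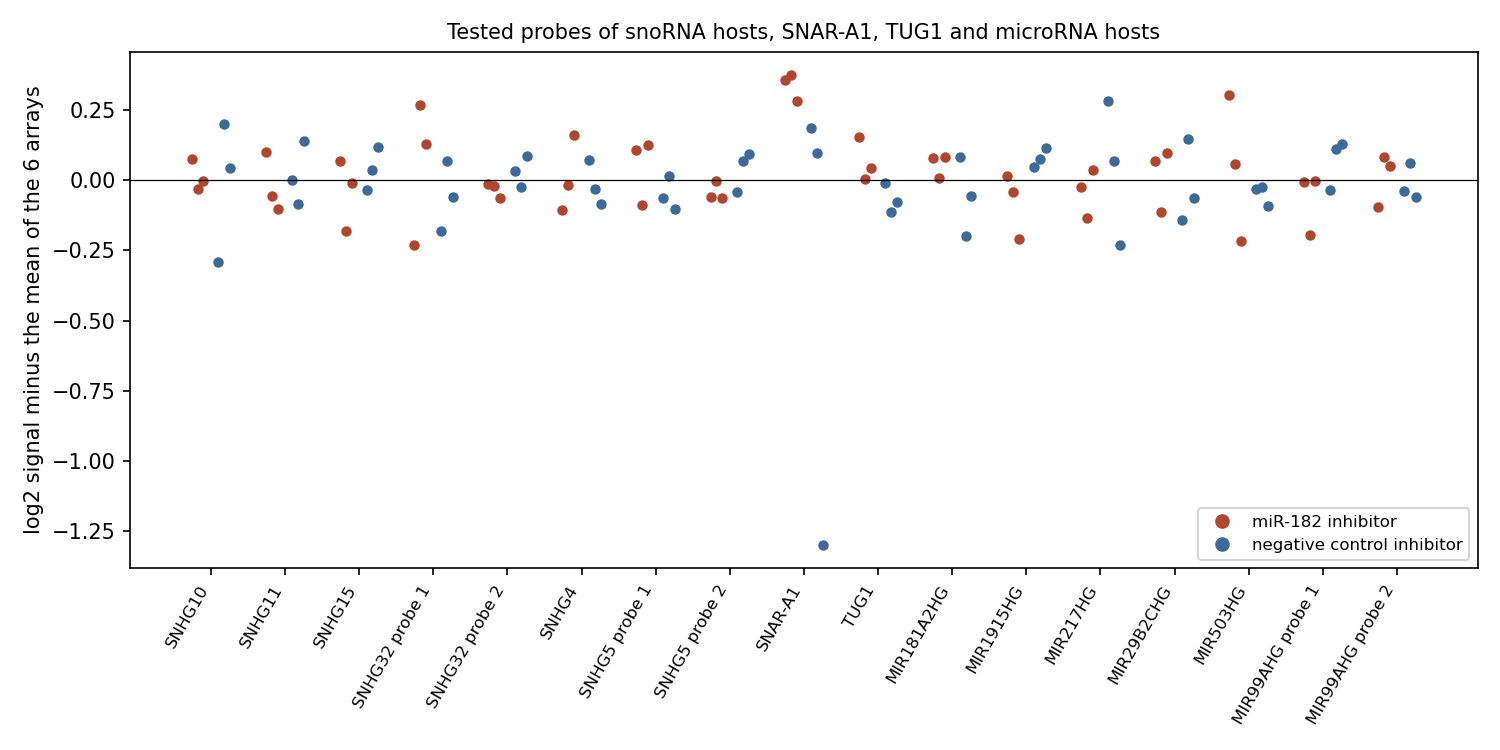
Log2 signal of each array minus the probe's mean over 6 arrays (y axis) for the 17 tested probes of snoRNA hosts, SNAR-A1, TUG1 and microRNA hosts (x axis), inhibitor arrays in red on the left and control arrays in blue on the right of each position. SNAR-A1 on control replicate 3 lies alone at the bottom. SNAR-A1, TUG1 and MIR1915HG are the probes whose groups do not overlap on these normalized values.

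Among antisense genes, 51 probes were tested, 27 higher and 24 lower, with a median of 0.03. ENO1-AS1, named for the glycolytic enzyme enolase 1, read 5.05, 5.05 and 5.04 on inhibitor arrays and 5.23, 5.27 and 5.57 on control arrays. The inhibitor arrays lay together below all control arrays, and control replicate 3 was the highest. The difference was -0.31 ± 0.10 (unadjusted p = 0.00922, adjusted p = 0.640). PRKAR1B-AS1, named for a regulatory subunit of protein kinase A, read 4.77, 4.71 and 4.79 with the inhibitor and 4.87, 5.05 and 4.93 with the control (-0.19 ± 0.08, adjusted p = 0.702), and its groups did not overlap. PSMD6-AS2, named for a proteasome subunit, read 4.57, 4.54 and 4.58 with the inhibitor and 4.87, 5.14 and 4.56 with the control (-0.29 ± 0.13, adjusted p = 0.706). Its groups overlapped, since control replicate 3 was as low as the inhibitor arrays.

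SLC38A4-AS1 and CLEC12A-AS1 were on the higher side. SLC38A4-AS1, named for an amino acid transporter, read 5.28, 5.15 and 5.37 with the inhibitor and 5.06, 4.97 and 5.16 with the control on one probe (0.21 ± 0.09, adjusted p = 0.706), with overlapping groups. Its other probe gave -0.01 ± 0.07, so the pair did not give the same answer. CLEC12A-AS1, named for a lectin receptor of myeloid cells, read 4.79, 4.65 and 4.71 with the inhibitor and 4.57, 4.48 and 4.59 with the control (0.17 ± 0.07, adjusted p = 0.706), and the groups did not overlap. TENM3-AS1, named for a teneurin, gave -0.13 ± 0.08 and 0.03 ± 0.08 on its 2 probes. Of the 7 member genes with more than 1 tested probe, the differences had opposite signs in 5 and the same sign in 2.

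Antisense, intronic and divergent RNAs can be set beside the gene they are named after. Of 69 tested probes of these classes, 50 had a tested partner probe, from 49 partner genes, each represented by its brightest probe. The signs were the same in 16 and opposite in 34, and Pearson's r of the differences was -0.10 and Spearman's rho -0.17 across the pairs, which share arrays and are not independent. In RefSeq, 32 of the pairs overlapped in position and 17 did not, ENO1-AS1 with ENO1 and ID2-AS1 with ID2 among the latter. None of the partners passed the test. ENO1 itself read 14.15, 14.18 and 14.14 with the inhibitor and 14.15, 14.20 and 14.11 with the control (0.00 ± 0.07), with overlapping groups beside the lower ENO1-AS1. PSMD6 differed by -0.02 ± 0.09 and PRKAR1B by 0.05 ± 0.07. The partners with an unadjusted p under 0.05 were PPP3CA, the catalytic subunit of calcineurin (-0.30 ± 0.12), FOXN3, a transcriptional repressor (-0.18 ± 0.08), and ID2, an inhibitor of helix-loop-helix factors (0.18 ± 0.07). The other tested probe of PPP3CA gave 0.08, of opposite sign. The noncoding neighbours PPP3CA-DT, FOXN3-AS1 and ID2-AS1 differed by -0.08 ± 0.07, 0.06 ± 0.08 and -0.01 ± 0.10. CLEC12A and SLC38A4 were not detected on enough arrays to be tested.

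**Figure D4:**
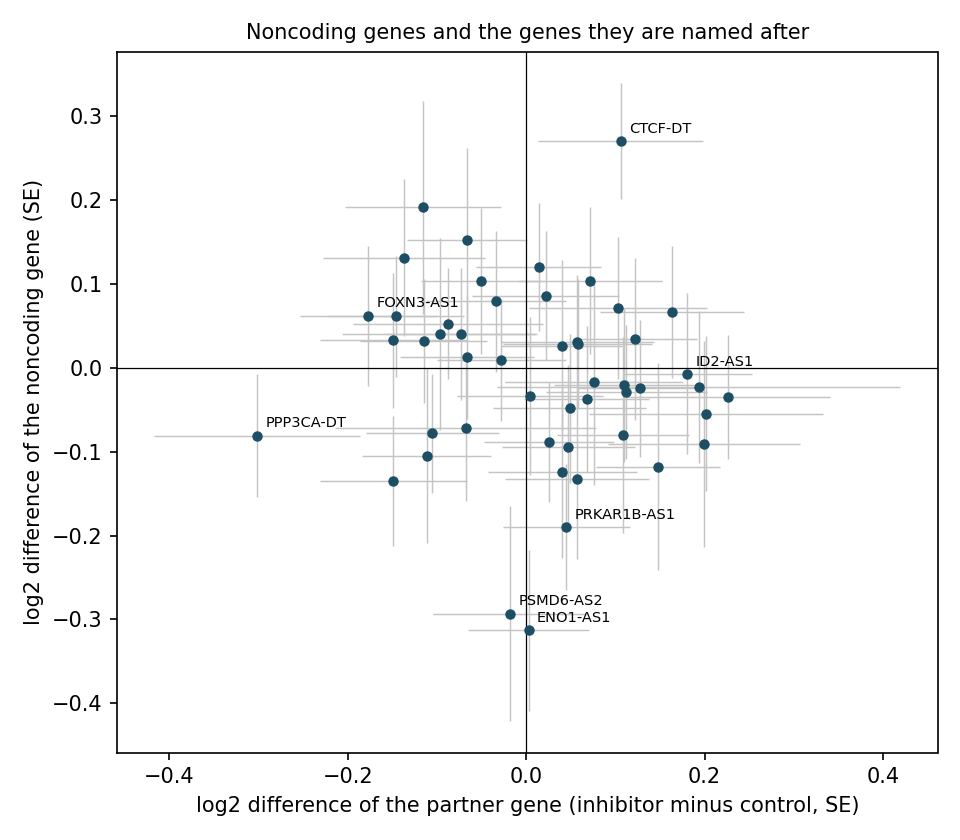
Log2 difference of each antisense, intronic or divergent probe (y axis) against that of the gene it is named after (x axis), both inhibitor minus control with SE bars, for 50 pairs. Named points have an unadjusted p under 0.05 in either gene, and the points scatter to both sides of 0 on both axes (r = -0.10).

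Of the 63 intronic and divergent probes, 18 were tested, 8 higher and 10 lower. CTCF-DT, which starts beside the gene of the insulator protein CTCF and runs away from it, stood at the top of this class. It read 4.78, 4.73 and 4.78 on inhibitor arrays and 4.48, 4.55 and 4.46 on control arrays. It was detected on all 3 inhibitor arrays and on 0 control arrays, so its difference in group means is a bound, at least 1.16-fold higher with the inhibitor (adjusted p = 0.640). Because it met the detection rule through the inhibitor arrays alone, the rule partly set the direction of this difference. All 6 values lay near the detection limit. The coding partner CTCF read 8.56, 8.61 and 8.35 with the inhibitor and 8.42, 8.29 and 8.50 with the control (0.11 ± 0.09, adjusted p = 0.856), with overlapping groups.

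The promoter window of CTCF-DT, 250 bases before to 50 after its start, is shown because this member was detected in 1 group only. It spans chr16:67562260-67562559 on the minus strand and is 76.7% G or C, with GC boxes (GGGCGG, searched on both strands) in capitals.
CTCF-DT: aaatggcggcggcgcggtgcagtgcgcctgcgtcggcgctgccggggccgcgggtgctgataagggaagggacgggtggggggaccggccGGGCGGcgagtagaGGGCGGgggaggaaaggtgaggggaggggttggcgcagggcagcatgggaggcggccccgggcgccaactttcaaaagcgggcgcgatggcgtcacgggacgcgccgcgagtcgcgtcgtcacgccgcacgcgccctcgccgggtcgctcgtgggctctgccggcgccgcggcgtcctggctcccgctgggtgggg
Windows of the same length, 1 per gene, were found for 561 of the 733 member genes. A GC box stood in 47 of 118 windows of tested members (39.8%), in 96 of 443 of members that were not tested (21.7%) and in 44.6% of all 27305 windows. The CCAAT box was at 34.7%, 35.2% and 35.7% in the same sets, and the TATA box (TATAAA) at 9.32%, 13.1% and 12%. The sequence CACGTG was at 6.78%, 4.51% and 7.43%, and TGACGTCA at 1.69%, 1.35% and 1.98%. These shares describe letters and not binding.

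The LINC genes, the largest class, had 78 tested probes, 39 higher and 39 lower, with a median of -0.00 and a range of -0.29 to 0.32. LINC01917 read 4.75, 4.71 and 4.67 on inhibitor arrays and 4.45, 4.41 and 4.34 on control arrays. It was the other member detected on all 3 inhibitor arrays and 0 control arrays, and was at least 1.12-fold higher with the inhibitor (adjusted p = 0.640). That pattern was met by 2 of the 164 tested members and by 26 of all 21349 tested probes (0.122%). The opposite pattern, 0 inhibitor arrays and 3 control arrays, was met by 4 of the 164 tested members and by 73 of all 21349 tested probes (0.342%). Both patterns took a larger share of the tested members than of all tested probes. By group means LINC00867 was at least 1.03-fold lower with the inhibitor (adjusted p = 0.702). On the same measure LINC01476 and LINC02720 were, like MIR1915HG, at least 1.01-fold lower (adjusted p = 0.799 for LINC01476 and 0.719 for LINC02720). These bounds are small because all these probes lay at the detection limit. They compare group means and take no account of the spread between replicates. The unadjusted p was 0.156 for LINC01476 and 0.0775 for MIR1915HG. A member detected in 1 group only met the detection rule through that group alone, so the rule partly set the direction of its difference.

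LINC02650 had the largest difference of the class, with 5.14, 4.97 and 4.99 on inhibitor arrays and 4.87, 4.74 and 4.52 on control arrays (0.32 ± 0.10, adjusted p = 0.640). Its groups did not overlap. LINC01208 (0.28 ± 0.10), LINC02172 (0.21 ± 0.08) and LINC02289 (0.18 ± 0.07) were also apart on the higher side, and LINC01414 (0.24 ± 0.11) overlapped. LINC01186 read 4.52, 4.75 and 4.73 with the inhibitor and 4.98, 4.93 and 4.82 with the control (-0.24 ± 0.09, adjusted p = 0.691). Its groups were apart, as were those of LINC01451 (-0.18 ± 0.07) and LINC00706 (-0.18 ± 0.08). LINC00706 was detected on all 6 arrays, at 5.97, 6.10 and 6.01 with the inhibitor and 6.17, 6.11 and 6.35 with the control. LINC01089 had 3 tested probes, all below 0, of which one gave -0.29 ± 0.14 (adjusted p = 0.740) and another -0.01. None of the 20 members with the smallest p, 10 in each direction, turned sign under any alternative in which it was tested, but their sizes moved. Only 7 of the 20 were detected on all 6 arrays, and 11 met the rule at a detection p under 0.01. LINC01208, LINC02172 and LINC02289 were in neither of these sets. The 20 were picked by their p on these same arrays, which makes a turn of sign unlikely, so the kept signs are no separate support. With the deposited value table, and likewise without background correction, 18 of the 20 shrank by over 1.5 times, LINC02650 to 0.17 in both. Leaving out control replicate 3 brought LINC01089 to -0.14, LINC01414 to 0.13, LINC00706 to -0.12 and ENO1-AS1 to -0.21, and took PSMD6-AS2 to -0.44. PSMD6-AS2 was at -0.15 without control replicate 2. Without inhibitor replicate 3, LINC01208 was at 0.17, and MIR1915HG also moved by over 1.5 times.

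**Figure D5:**
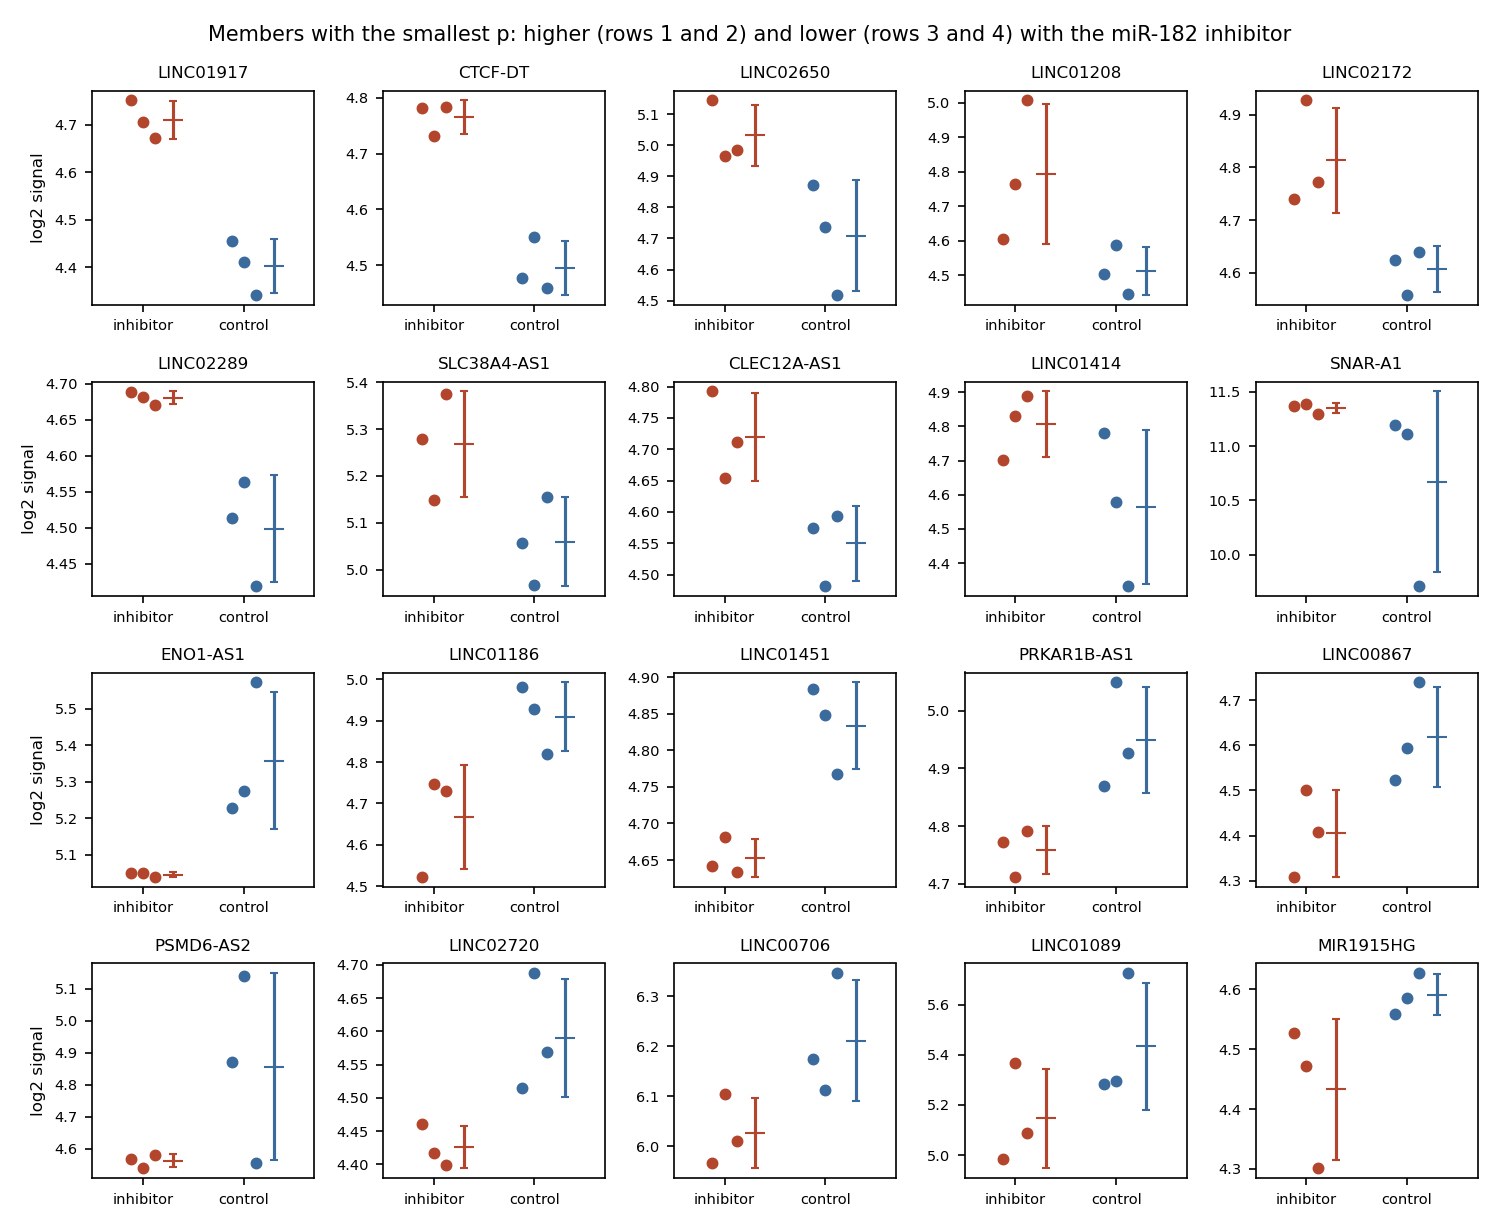
Log2 signal (y axis, own scale per panel) on the 3 inhibitor arrays (red, left) and 3 control arrays (blue, right) of the 20 tested members with the smallest p, 10 higher and 10 lower, with mean and SD beside the points. SNAR-A1 is set apart by 1 control array at 9.71, and most other panels cover well under 1 log2 unit.

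Proteins that bind, process or destroy these RNAs were read from the same fit, and none of their probes passed the test (0 of 21349). The nonsense-mediated decay factors had 8 of 22 probes higher and 14 lower (median -0.03), with PNRC2, a decapping adaptor, at 0.29 ± 0.15 and NBAS at -0.19 ± 0.14. The snoRNP core and assembly proteins had 8 of 28 higher and 20 lower (median -0.04). Among them NHP2, a box H/ACA core protein, was at -0.25 ± 0.07 (adjusted p = 0.640) and the assembly factor ZNHIT3 at 0.14 ± 0.08. Of 26 paraspeckle protein probes 14 were higher and 12 lower (median 0.01), with CPSF6 at 0.26 ± 0.07 and DAZAP1 at -0.26 ± 0.13. The exosome and its cofactors had 10 of 23 higher and 13 lower (median -0.00), with C1D at 0.29 ± 0.09 and RBM7, of the nuclear exosome targeting complex, at 0.16 ± 0.10. A list of double-stranded RNA-binding and export proteins (ILF2, STAU1, DHX9, XPO5 and ADAR) had 5 of 12 probes higher and 7 lower (median -0.01). STAU1 was at 0.13 ± 0.07 and the RNA editing enzyme ADAR at -0.10 ± 0.08. Polycomb repressive complex 2 had 13 of 18 higher and 5 lower (median 0.04), with PHF19 at -0.23 ± 0.07 and RBBP4 at 0.17 ± 0.08. Each value named here is of 1 probe, and several of these genes had other tested probes that gave smaller differences or the opposite sign. The brighter probe of PNRC2 gave -0.08 and that of NHP2 -0.01. Other probes gave 0.04 and -0.02 for PHF19, -0.02 and 0.02 for STAU1, and 0.05 and -0.04 for ADAR. They gave 0.00 for ZNHIT3, 0.06 for RBBP4 and -0.08 for DAZAP1. The C1D probe was detected on 3 inhibitor arrays and 1 control array. Its mean log2 signals, 4.81 with the inhibitor and 4.51 with the control, lay near the detection limit. It met the detection rule mainly through the inhibitor arrays, and the other C1D probe was not tested.

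Over the whole series, each array detected between 20365 and 22473 probes, at a median signal of 43.5 to 49.4. Of the markers listed for ES-2 cells and ovarian epithelial tumours, VIM, KRT8, KRT18 and MUC16 were detected on all 6 arrays and KRT19 on none. PAX8 and EPCAM each had 1 probe detected on some arrays. VIM, which is not particular to epithelium, was by far the brightest, at mean log2 signals of 14.09 and 13.67 with the inhibitor. KRT18 averaged 6.59 and 7.86, KRT8 6.73 and MUC16 5.32 on the same arrays. Of the clear cell markers SPP1 and ANXA4 were detected on all arrays and NAPSA and GPX3 on none. Markers listed for other cell types were detected in part. For endothelium, CDH5 and PECAM1 were detected on all 6 arrays (CDH5 at a mean log2 signal of 10.04 with the inhibitor and 10.12 with the control), KDR on 2 inhibitor arrays and VWF on none. For fibroblasts, COL1A1 was detected on all 6 arrays (9.69 with the inhibitor and 9.74 with the control), PDGFRB on 2 inhibitor and 3 control arrays, 1 of 4 DCN probes on 1 inhibitor and 2 control arrays, and COL3A1 and LUM on none. For white blood cells, 1 of 2 CD14 probes was detected on all 6 arrays, 1 of 2 LYZ probes on 1 inhibitor and 3 control arrays, CD3E on 1 inhibitor array and PTPRC on none. The summed linear signal of the endothelial list was 1135 to 1175 on inhibitor arrays and 1177 to 1231 on control arrays, and those of the fibroblast and white blood cell lists overlapped between the groups. The part of these markers in the results above was not tested. Less RNA per cell and fewer cells making an RNA cannot be told apart in such bulk samples.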

How the data were processed

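Total RNA of 6 ES-2 cultures, 3 per group, was hybridised to Illumina bead arrays. The deposited array files hold, per the file headers, a linear signal intensity for every probe, a detection fraction, the standard deviation over beads as a signal of its own, and a bead count. BeadStudio is named in the submitters' processing notes, and its settings are not given in the sources used here. A value table deposited by the authors holds intensity values put on 1 common distribution, by a method not given in the sources used here. Bead addresses were joined to probe names through their ranks in that table on all 6 arrays, which paired all 48803 probes. Of these, 28098 had 1 gene in the platform annotation, 13 several and 20692 none. Of the probes with several genes, 6 matched the rule through 1 of them and were left out.

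The function neqc (limma 3.58.1, R 4.3.3, offset 16) corrected the background, applied quantile normalization and gave log2 values, which differs from the deposited linear scale. Probes with a detection p (1 minus the deposited fraction) under 0.05 on at least 3 of 6 arrays were fitted with lmFit and eBayes, each probe on its own, with 2-sided tests, inhibitor minus control. Adjusted p-values were computed over all 21349 probes. A probe detected in 1 group only was given a bound, for which the dim group's value on each array was raised to the lowest value among detected probes where it lay under it. The bound compares group means and leaves out the spread between replicates. The fit was tested on simulated data. The precision rests on 3 arrays per group and on 17 to 73 beads per member probe. No slide or scan date was given, so batches were not tested.

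The members and gene lists were chosen with earlier results of these data known. Members named with values were the single genes of the rule, all tested SNHG, SNAR and microRNA host probes, the 10 smallest p in each direction, members detected in 1 group only, members whose 6 values spanned over 1 log2 unit, genes whose probes had opposite signs, and partners of those named. The 2 probes farthest from 0 were named in each protein list. The partners with an unadjusted p under 0.05 and the RNA polymerase III products were chosen after their values were seen. Some items of the gene lists are not reported here.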

Additional observations from a re-analysis of the deposited data

How the results depend on the processing

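The deviations of same-numbered arrays from their group means correlated at 0.038, 0.022 and 0.023, and those of differently numbered arrays at -0.066 to 0.040. With so few arrays these values cannot tell whether same-numbered cultures were handled together. With the replicate number as a block, 0 probes and 0 members were called, 13 members had an unadjusted p under 0.05 against 14, and the median stayed at 0.0053. Calls appeared without normalization between arrays and with median scaling, in which every probe shared 1 standard error (0.138 and 0.132 in that order). Without normalization 8 probes were called, 1 of them a member, 7 members had an unadjusted p under 0.05 and the members' median was 0.0243, against -0.0061 over all probes. With median scaling 9 probes were called, 1 of them a member, and 8 members had an unadjusted p under 0.05. The called member was SNAR-A1 in both, with 0.64 (adjusted p = 0.0239) and 0.62 (adjusted p = 0.0105). Leaving out each array in turn gave 0 to 1 called probes, 0 called members, 9 to 14 members with an unadjusted p under 0.05 and a median of 0.00066 to 0.0163. SNAR-A1 ranged from 0.20 to 0.94. The members with an unadjusted p under 0.05 numbered 6 with the deposited value table, 6 without background correction, 36 without a filter, 5 with detection on all 6 arrays, 7 with detection p under 0.01 and 9 with an intensity trend and robust prior. The median was -0.0109 with detection on all 6 arrays and -0.0088 with detection p under 0.01. Of 39 named probes, 9 turned sign in at least 1 fit that left out an array, all of them uncalled and outside the 20 with the smallest p. Those 20 were chosen by p from the same arrays, so their kept signs follow largely from the choice. The number of members detected on at least 3 arrays was 121 at a detection p of 0.01 and 217 at 0.10. The low signals of most members limit what could be seen.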
